A study of Mus musculus with 12 samples.

Results

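The 35 interferon-stimulated genes described here were chosen by gene name, with no threshold on their values, as genes that cells switch on when an interferon binds its receptor. They are 35 of 54532 genes in a table of RNA sequencing counts from mouse eosinophils. Of the 35, 29 had enough counts to be tested, out of 14547 genes tested in all. The cells were splenic eosinophils sorted for high side scatter and for the green reporter of the 4get allele, from IL-5tg_4get/C57BL/6 mice. All 4 groups, controls included, thus carried the interleukin-5 transgene, which drives the eosinophil excess of this strain, and the reporter. After sorting, cells were kept for 4 h with a rat IgG2a isotype control antibody, with an anti-Siglec-F antibody (5 µg/mL), with 10 ng/mL of recombinant interleukin-33 (IL-33), or with antibody and IL-33 together. Each group had 3 libraries. The labels do not say whether the wells with IL-33 alone also held isotype antibody, and they do not tie replicate libraries to separate mice or wells. The p-values therefore reflect library-to-library spread alone, which may be technical.

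Interferons are secreted proteins that warn cells of infection. Type I interferons signal through the receptor chains Ifnar1 and Ifnar2 and the kinases Jak1 and Tyk2 to a complex that contains Stat2 and Irf9 and binds the interferon-stimulated response element in the promoters of its targets. Type II interferon, encoded by Ifng, signals through Ifngr1 and Ifngr2 to factors that bind gamma-activated sites. The targets include sensors of viral nucleic acid, proteins that block viral entry or growth, and brakes on the response, and many cells express some of them at a basal level without added interferon. IL-33 is an alarmin cytokine that acts on eosinophils through the receptor ST2 and the adaptor Myd88, and Siglec-F is an inhibitory sialic acid-binding receptor of mouse eosinophils.

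Promoter sequences are shown because they are where the interferon-driven factors bind, and because members that moved and members that did not could be compared there. RefSeq windows (build GRCm38.p6) of the 250 bases before the start site were found for 28 of the 35 genes, with 34 windows in all since some genes have several. Dhx58, Zbp1, Oas2, Mx1, Mx2, Usp18 and Parp14 had no entry. Both strands were searched for the interferon-stimulated response element as GAAANNGAAA (TTTCNNTTTC on the other strand), for the gamma-activated site as TTCNNNGAA, and for an NF-kB site as GGGNNTTTCC (GGAAANNCCC on the other strand). The first was found in 12 of 34 windows (35.3%), against 2.98% of all 32851 windows in the RefSeq table. Gamma-activated sites were found in 8 of 34 windows (23.5%, against 7.02% of all windows), and the NF-kB letters in 1 (2.94%, against 1.41%), which was that of Gbp5. A match of letters describes the sequence and is not evidence of binding.

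The windows of 3 genes that were lower after stimulation, Oasl2 (chr5:114896684-114896933, plus strand), Gbp7 (chr3:142530086-142530335, plus strand) and Trim25 (chr11:88999153-88999402, plus strand), are printed beside those of Isg15 (chr4:156200819-156201068, minus strand) and Ifit1 (chr19:34640639-34640888, plus strand), 2 classic interferon targets that were not called. Each reads 5′ to 3′ in the direction of the gene, and capitals mark the matches.
Oasl2: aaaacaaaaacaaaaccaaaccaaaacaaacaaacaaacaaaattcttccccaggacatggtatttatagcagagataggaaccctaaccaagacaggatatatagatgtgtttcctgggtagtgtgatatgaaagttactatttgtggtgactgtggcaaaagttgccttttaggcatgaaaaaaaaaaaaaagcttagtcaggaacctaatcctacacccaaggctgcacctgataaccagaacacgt
Gbp7: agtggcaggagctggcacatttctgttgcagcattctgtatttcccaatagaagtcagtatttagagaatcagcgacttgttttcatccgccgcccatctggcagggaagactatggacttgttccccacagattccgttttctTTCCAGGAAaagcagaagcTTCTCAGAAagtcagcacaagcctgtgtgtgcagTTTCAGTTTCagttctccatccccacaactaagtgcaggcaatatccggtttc
Trim25: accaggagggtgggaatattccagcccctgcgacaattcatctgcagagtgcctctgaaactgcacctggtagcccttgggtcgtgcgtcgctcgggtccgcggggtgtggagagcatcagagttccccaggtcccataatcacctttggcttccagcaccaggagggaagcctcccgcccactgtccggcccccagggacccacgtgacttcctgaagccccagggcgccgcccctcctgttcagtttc
Isg15: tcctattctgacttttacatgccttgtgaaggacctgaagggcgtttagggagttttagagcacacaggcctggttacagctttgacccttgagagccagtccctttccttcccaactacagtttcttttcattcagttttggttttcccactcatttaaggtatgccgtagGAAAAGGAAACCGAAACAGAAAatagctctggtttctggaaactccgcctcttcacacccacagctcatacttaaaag
Ifit1: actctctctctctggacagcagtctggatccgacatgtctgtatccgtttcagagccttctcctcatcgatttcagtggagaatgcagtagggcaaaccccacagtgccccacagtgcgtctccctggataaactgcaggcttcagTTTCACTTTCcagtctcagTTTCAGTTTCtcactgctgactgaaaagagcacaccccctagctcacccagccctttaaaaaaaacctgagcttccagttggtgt

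Among these 5 windows, that of Isg15 held 3 overlapping response-element matches, whose first bases lay at positions -78, -72 and -66 from the start site, and that of Ifit1 held 2, at -104 and -85. The Gbp7 window held 1 response-element match at -53 and 2 gamma-activated sites at -106 and -87. The Oasl2 and Trim25 windows held none of the letters searched. Among the other members, Bst2, Gbp3 and Oas1a each had 2 response-element matches that overlapped each other, and in Bst2 a gamma-activated site, whose first base lay at -136, overlapped the first of them, at -130.

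Total counts ran from 11686603 to 17137988 per library, and 3 counts, used as the lowest readable level, corresponded to 0.175 to 0.257 CPM, the count scaled to library size. Libraries 2 and 3 of the group with both stimuli (the combined group) stood apart. They had at least 1 count for 15555 and 29990 genes, against 19138 to 24485 in the other 10 libraries. Their share of counts on ribosomal protein genes was 3.08% and 3.57%, where the other 10 had 1.52% to 2.43%. They are named combined libraries 2 and 3 from here on. Results that rest on these libraries are given with and without them. Leaving them out leaves 1 library in the combined group, so such a fit takes its spread from the other groups and assumes that the lone library varies like theirs. Its calls have no replicate behind them in that group. Replicates also spread most in that group: over 9178 genes the median standard deviation (SD) of log2 CPM was 0.332 with both stimuli, 0.210 with IL-33, 0.176 with the antibody and 0.154 with isotype. The 12 eosinophil markers, among them Siglecf, Epx and Prg2, were all tested and summed to 5412 to 15091 CPM in every library.

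The interferon-stimulated genes were present at widely different levels in the isotype group and in the others. Scaled for gene length as CPM per kilobase (RPKM), Ifi35, a partner of the interferon-induced protein Nmi, was the highest of the 35, with a mean of 34.5 RPKM over 12 libraries, above 89.7% of the genes tested. Ifitm3, a membrane protein that blocks virus entry, followed with 29.2 RPKM, Trim25 with 25.6, the transcription factor Irf1 with 19.4 and the virus tether Bst2 with 19.1. Irf9 and Stat2, parts of the interferon-activated complex, stood at 9.50 and 9.46 RPKM. Not all antiviral effectors stood as high as Ifitm3 and Bst2: Isg20 had 3.98 RPKM, and others were low. Ifit1, which binds foreign RNA, had 0.274 RPKM, Rsad2 (viperin) 0.245 and Mx1, a GTPase against influenza viruses, 0.0809.

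Members that were not tested were Ifit2, Ifit3, Mx1, Mx2, Oas2 and Ifi44, with 70, 23, 50, 13, 55 and 9 counts over all 12 libraries. Their highest value was 1.02 CPM, for Ifit2 in IL-33 library 2. Ifi44 had no count in 8 of 12 libraries and Mx2 in 6. Any difference between groups in these 6 genes was not detectable at this depth. Reads of Oas1a, Ifit1 and Ifit3 and of the Gbp genes may be shared with close copies, so their counts are uncertain.

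**Figure D1:**
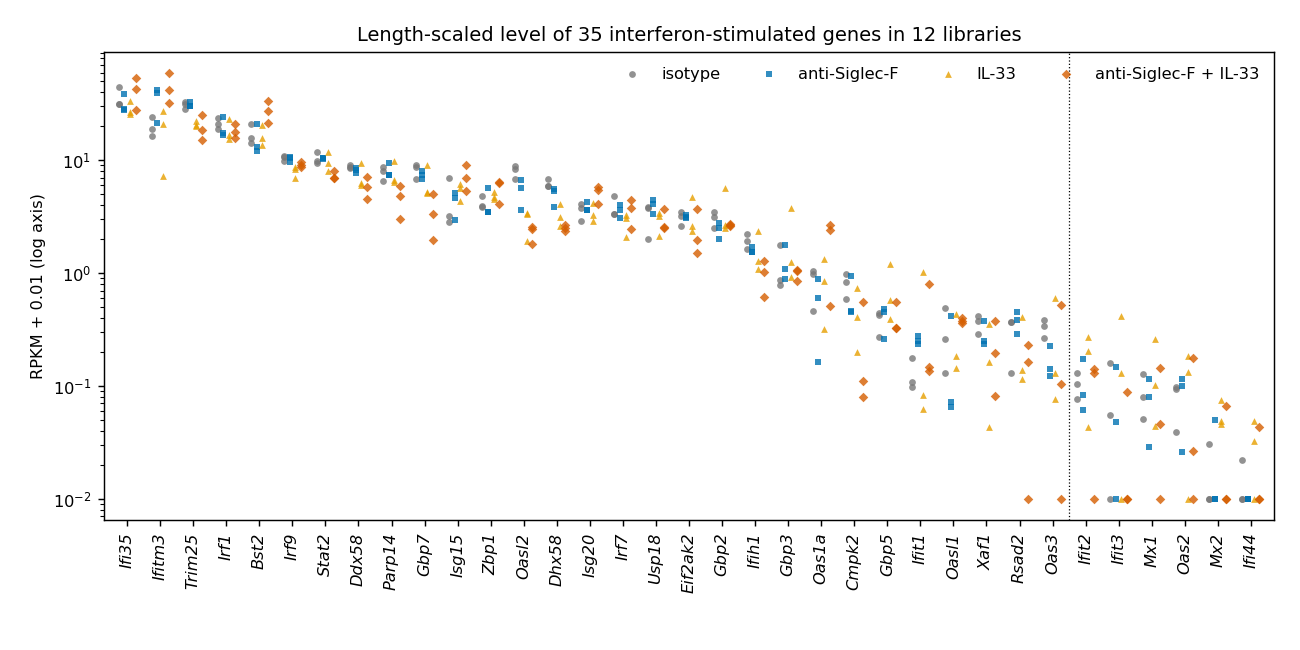
Length-scaled level (RPKM plus 0.01, log axis) of each of the 35 genes in the 12 libraries, ordered by the mean over all libraries, with 1 point per library and a marker per group. Genes to the right of the dotted line were not tested. Ifi35 has a mean of 34.5 RPKM and Ifi44 of 0.00889.

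The comparison of IL-33 with isotype addresses what the cytokine alone did to these genes. No member rose and 2 fell, Oasl2 and Dhx58, both linked to the sensing of foreign nucleic acid. That is 6.90% of the 29 tested, while edgeR called 0.749% of all 14547 genes lower, 1.46% higher and 2.21% in either direction (adjusted p under 0.05). At an unadjusted p under 0.05 there were 4 members, all lower (13.8%, against 13.6% of all genes in either direction). Log2 fold changes were negative for 21 members and positive for 8, with a median of -0.19, against -0.01 over all genes tested. The level of all 35 members summed was 824, 817 and 844 CPM in isotype libraries 1, 2 and 3 and 602, 665 and 731 CPM in IL-33 libraries 1, 2 and 3. This sum is weighted to abundant members. Trim25 had means of 178 CPM in isotype and 120 CPM with IL-33, and Oasl2 of 51.0 and 18.4 CPM. The transcription factors summed to means of 216 and 186 CPM. Antiviral effectors summed to 40.9 and 39.2 CPM, and the Gbp genes to 60.0 and 56.3 CPM. In bulk RNA, fewer cells of a type and less RNA of a gene per cell cannot be told apart.

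Oasl2 (ENSMUSG00000029561, mm10 chromosome 5, 114896936 to 114912234, plus strand) encodes an oligoadenylate synthetase-like protein of the interferon response. Its level was 56.3, 43.1 and 53.5 CPM in isotype libraries 1, 2 and 3, and 12.2, 21.7 and 21.2 CPM with IL-33. The lowest isotype library was above every IL-33 library. The means were 51.0 ± 6.95 and 18.4 ± 5.33 CPM (SD, n = 3), a 2.78-fold decrease with a log2 fold change of -1.47 (SE 0.26, edgeR adjusted p = 0.00837). Among fits with 1 library left out, the call was lost without isotype library 1 (log2 fold change -1.37, edgeR adjusted p = 0.0542) and held in the other 5.

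Dhx58 (ENSMUSG00000017830, mm10 chromosome 11, 100694884 to 100704271, minus strand) encodes LGP2, a relative of the RNA sensor RIG-I that lacks its signalling domain. It stood at 19.4, 22.3 and 19.3 CPM in the isotype libraries and at 10.3, 8.58 and 13.4 CPM with IL-33. The groups did not overlap. Its log2 fold change was -0.91 (SE 0.21, edgeR adjusted p = 0.0353). This call was less secure: it held only when IL-33 library 3 was the one left out, and was lost when isotype library 1, 2 or 3 was omitted (adjusted p = 0.118, 0.161 and 0.126) and when IL-33 library 1 or 2 was (0.174 and 0.169), with log2 fold changes between -0.92 and -0.76 in these 5 edgeR fits. Omitting isotype library 1 left 0 members called, with 0.760% of all genes called, against 2.21% in the main fit. Omitting isotype library 2 or 3 left 1, with 0.887% and 0.837% of all genes called. Leaving out IL-33 library 1 or 2 also left 1, with 0.812% and 1.17% of all genes called. These fits tested 29 or 30 members.

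**Figure D2:**
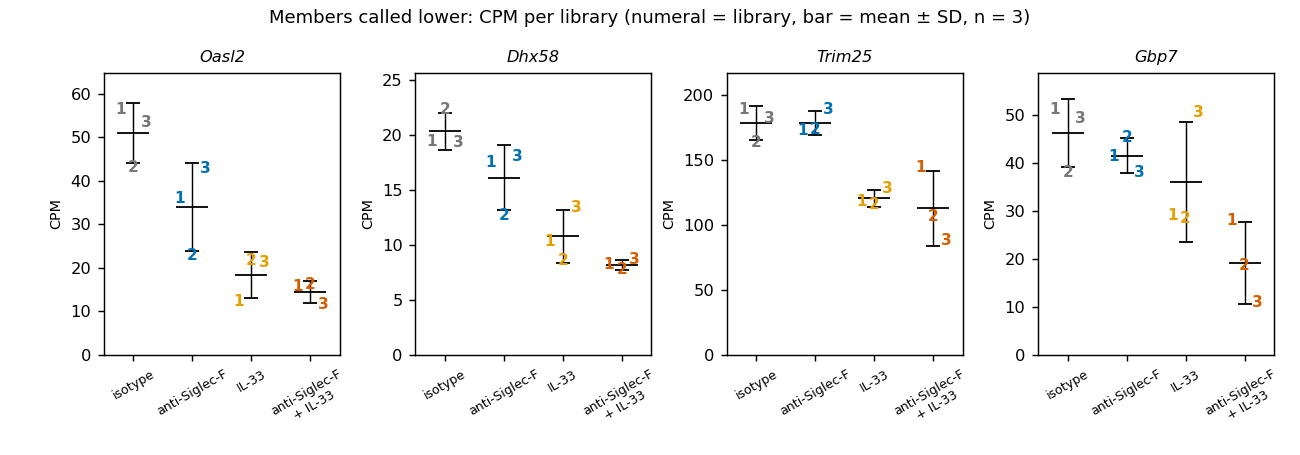
CPM of the 4 members called lower in at least 1 comparison, by group. Each numeral is a library, the long bar is the mean and the whiskers are the SD (n = 3). For Oasl2 the isotype libraries lie between 43.1 and 56.3 CPM and the libraries with both stimuli between 11.6 and 16.2 CPM.

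Groups that did not overlap occurred in 5 members for IL-33 against isotype, all lower with IL-33 (17.2%, against 13.1% of all genes tested lower and 11.0% higher). Besides the called pair these were Trim25, Irf9 and Irf7. Trim25 stood at 189, 163 and 182 CPM in isotype and 118, 115 and 128 CPM with IL-33, a log2 fold change of -0.57 (SE 0.17, edgeR adjusted p = 0.109). It was called lower by DESeq2 (adjusted p = 0.0406), by limma voom (0.00133), and by edgeR with only the groups compared (0.0497), with these groups and the replicate block (0.0205) and without combined libraries 2 and 3 (0.0248). Irf9 stood at 57.4, 59.3 and 52.6 CPM against 47.3, 37.9 and 45.3 CPM (log2 fold change -0.38, SE 0.13, edgeR adjusted p = 0.197). Markers of monocytes and macrophages, 13 of 14 tested and none at 0 throughout, summed to 1646 to 1945 CPM in isotype and 2689 to 3645 CPM with IL-33, and 3 of the 13 were called higher by edgeR. Neutrophil markers (11 of 11 tested), basophil and mast cell markers (6 of 9) and erythroid markers (6 of 7) had no call, with sums of 478 to 2230 CPM, 15.7 to 38.1 CPM and 5.80 to 30.4 CPM over all libraries. Natural killer cell markers (2 of 8 tested) summed to at most 13.5 CPM, with Ncr1 at 0 in 9 libraries. The part of these cells in the results was not tested.

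With both stimuli against isotype, which asks what the combination did, edgeR called no member higher and 4 lower: Oasl2 and Dhx58 again, the ubiquitin ligase gene Trim25 and the GTPase gene Gbp7. That is 13.8% of the 29, while edgeR called 4.41% of all genes lower, 5.47% higher and 9.88% in either direction. The median log2 fold change was -0.22, against -0.05 over all genes tested, with 19 negative and 10 positive values. Monocyte and macrophage markers summed to 3369 to 4404 CPM here, with 4 of 13 called higher and 1 lower, and their part in the result was not tested. At an unadjusted p under 0.05 there were 9 lower and 2 higher (37.9%, against 26.5% of all genes). DESeq2 called 10 members, 8 lower and 2 higher (Ifitm3 and Bst2), and 16.5% of all genes. Without a low-count filter edgeR called 8, 7 lower and Ifitm3 higher, and 5.52% of all genes. With only the groups compared it called Ifitm3 higher (adjusted p = 0.0336) beside Oasl2 and Dhx58 lower, and 5.50% of all genes. Without combined libraries 2 and 3, which leaves 1 library in that group, Trim25 and Gbp7 lost their calls. The count of called members was 2 without isotype library 1 or 3 (3.38% and 3.41% of all genes called). It was 9 (7 lower, 2 higher) without combined library 1, where 19.1% of all genes were called. This comparison and that of IL-33 alone share the isotype libraries, so the repeat of Oasl2 and Dhx58 is not independent evidence.

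Oasl2 stood at 15.6, 16.2 and 11.6 CPM with both stimuli, a mean of 14.5 ± 2.50 CPM (SD, n = 3) and 3.53-fold below isotype (log2 fold change -1.82, SE 0.26, edgeR adjusted p = 0.00109). Dhx58 stood at 8.18, 7.74 and 8.65 CPM (log2 fold change -1.31, SE 0.21, edgeR adjusted p = 0.00194). For both genes all 3 libraries lay below every isotype and every antibody library. Both kept the call in each of 6 fits with 1 library left out. With combined library 1 alone in its group, the log2 fold changes were -1.65 and -1.26 (edgeR adjusted p = 0.0285 and 0.0413, with the spread taken from the other groups).

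Trim25 (ENSMUSG00000000275, mm10 chromosome 11, 88999376 to 89020293, plus strand), whose product attaches ubiquitin to RIG-I and conjugates the ubiquitin-like protein Isg15, stood at 144, 106 and 87.6 CPM with both stimuli. All 3 values were below the isotype range of 163 to 189 CPM. The log2 fold change was -0.66 (SE 0.17, edgeR adjusted p = 0.0260). It was -0.25 (adjusted p = 0.514) without combined libraries 2 and 3, and the call was kept in only 1 of 6 edgeR fits with 1 library left out, that without combined library 1. Without isotype library 1, 2 or 3 the adjusted p was 0.125, 0.0522 and 0.120, and without combined library 2 or 3 0.0686 and 0.0809. With only the groups compared it was 0.125.

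Gbp7 (ENSMUSG00000040253, mm10 chromosome 3, 142530342 to 142550149, plus strand) belongs to the guanylate-binding proteins, interferon-inducible GTPases that attack membranes of intracellular pathogens. It stood at 51.1, 38.1 and 49.3 CPM in isotype and 28.1, 18.7 and 11.0 CPM with both stimuli. The groups did not overlap, and the combined group spread more than isotype. The log2 fold change was -1.26 (SE 0.30, edgeR adjusted p = 0.0176), and -0.67 (adjusted p = 0.284) without combined libraries 2 and 3. The call was also lost without isotype library 1 or 3 (adjusted p = 0.0798 and 0.0749) and with only the groups compared (0.0605).

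Groups that did not overlap occurred in 12 members for both stimuli against isotype (41.4%, against 27.2% of all genes tested), 10 of them lower (34.5%, against 15.3%) and 2 higher. The lower ones were the 4 called genes with Ifih1, Ddx58, Stat2, Irf9, Cmpk2 and Parp14, and the higher ones Bst2 and Ifitm3. Ribosomal protein genes and the number of genes detected moved with combined libraries 2 and 3 as given above, and their part in these results was not tested.

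Siglec-F antibody without IL-33 was set against isotype to ask what the antibody did by itself. edgeR called none of the 29 members and 0.00% of all genes, and DESeq2 and limma voom also called no member (12 and 10 genes in all). At an unadjusted p under 0.05 there was 1 member, Oasl2 (3.45%), and 370 of all genes (2.54%). Oasl2 stood at 35.9, 22.9 and 42.8 CPM with the antibody, below all 3 isotype libraries (log2 fold change -0.59, SE 0.25, edgeR adjusted p = 1). Dhx58 stood at 17.5, 12.7 and 18.1 CPM, also without overlap (log2 fold change -0.33). Members without overlap numbered 4 lower (13.8%, against 6.51% of all genes), Oasl2, Dhx58, Ddx58 and Oas3, and 1 higher, Ifit1 (3.45%, against 6.73%). The median log2 fold change was -0.11, against -0.01 over all genes tested. Trim25 was level, at 173, 173 and 189 CPM (log2 fold change 0.00, SE 0.17). Gbp7 stood at 41.3, 45.2 and 38.0 CPM with the antibody, and overlapped isotype.

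Adding the antibody to IL-33 was tested as both stimuli against IL-33. edgeR called no member and 0.00% of all genes, with 4 members higher and 4 lower at an unadjusted p under 0.05 (27.6%, against 17.4% of all genes in either direction). DESeq2 called 1 member, Ifitm3, higher, and 3.23% of all genes in either direction. Members without overlap were Stat2, Gbp7 and Parp14, lower (10.3%, against 7.07% of all genes), and Bst2 and Ifitm3, higher (6.90%, against 6.98%). The log2 fold change was -0.34 (SE 0.26) for Oasl2 and -0.39 (SE 0.21) for Dhx58. Without combined library 1 edgeR called 5 of 30 members, 3 higher and 2 lower, and 13.85% of all genes.

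Adding IL-33 to the antibody was tested as both stimuli against the antibody alone. edgeR called no member higher and 3 lower, Oasl2 (log2 fold change -1.23, SE 0.26, edgeR adjusted p = 0.0208), Dhx58 (-0.97, SE 0.21, adjusted p = 0.0223) and Trim25 (-0.66, SE 0.17, adjusted p = 0.0431). That is 10.3% of the 29, while edgeR called 1.72% of all genes lower, 2.70% higher and 4.42% in either direction. Gbp7 missed the threshold (log2 fold change -1.11, edgeR adjusted p = 0.0513). Under limma voom Oasl2 and Dhx58 were not called (adjusted p = 0.0936 and 0.0770) and Gbp7 was (adjusted p = 0.0448). With only the groups compared edgeR called none of the 3 (adjusted p = 0.0603, 0.0881 and 0.171), and with median-of-ratios scaling Trim25 missed the threshold (adjusted p = 0.0502). With combined library 1 alone in its group no member was called, with log2 fold changes of -1.07, -0.93 and -0.26 (edgeR adjusted p = 0.250, 0.224 and 0.678). With a single library there, this loss says little, and the first 2 values were close to those with all libraries. Monocyte and macrophage markers summed to 2172 to 2520 CPM with the antibody and 3369 to 4404 CPM with both stimuli, with 3 of 13 called higher, and their part in these results was not tested. The count was also 0 without antibody library 1 or 3 and without combined library 3 (0.816%, 1.35% and 1.39% of all genes called). It was 9 without combined library 1, where 18.6% of all genes were called. At an unadjusted p under 0.05 there were 8 lower and 2 higher (34.5%, against 23.2% of all genes). Members without overlap numbered 12 (41.4%, against 22.0% of all genes), 10 lower and 2 higher (6.90%, against 10.0%), the higher ones Isg15 and Bst2.

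The interaction asked whether the antibody effect differed with and without IL-33. edgeR called no member and 0.00% of all genes, with 3 members, 2 higher and 1 lower (10.3%), and 7.91% of all genes at an unadjusted p under 0.05. Its log2 value was 0.24 (SE 0.36, edgeR adjusted p = 0.826) for Oasl2 and -0.06 (SE 0.29) for Dhx58. The 3 members were Bst2 (0.85, SE 0.36), Ifi35 (0.72, SE 0.33) and Parp14 (-0.79, SE 0.33), and for all of them the edgeR adjusted p was 0.583. DESeq2 and limma voom called no member either.

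**Figure D3:**
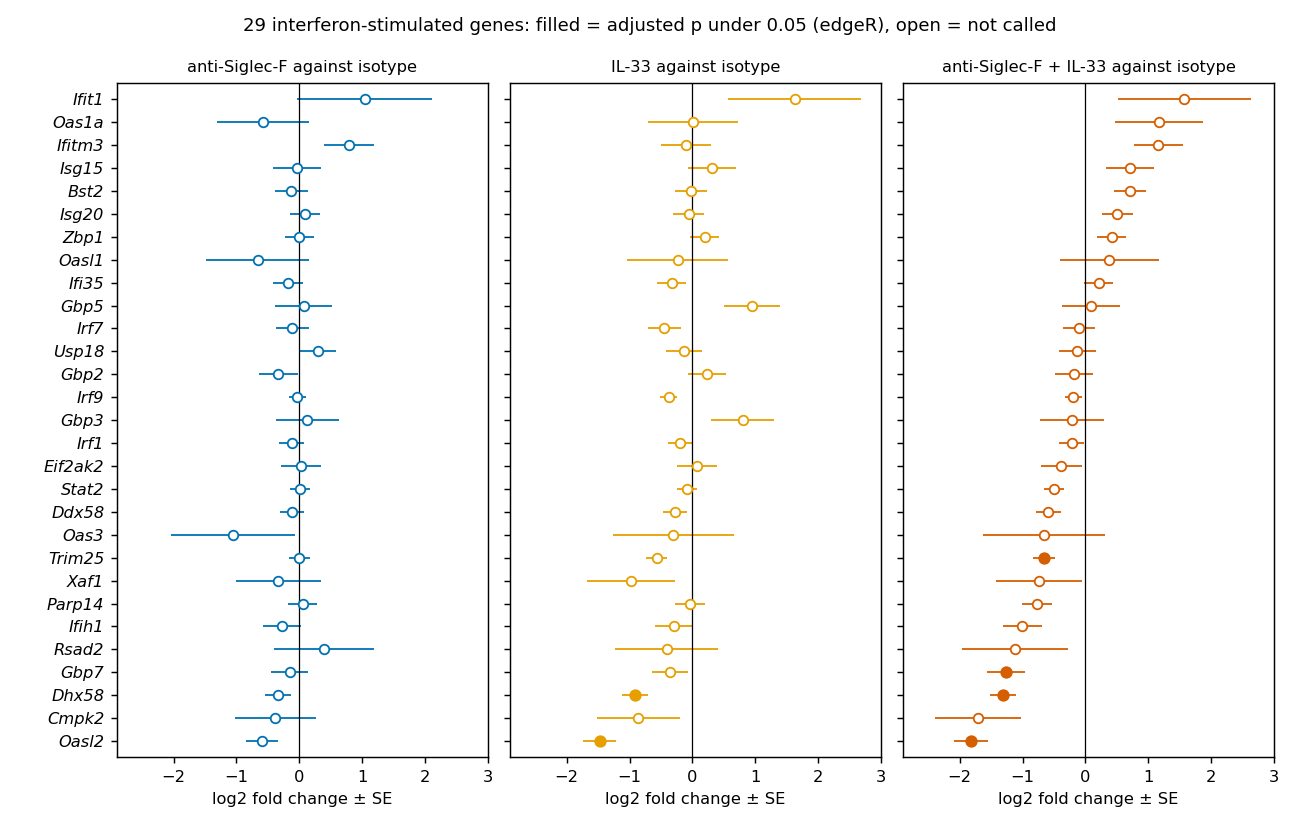
Log2 fold change with its SE for the 29 tested genes in each stimulated group against isotype, ordered by the value with both stimuli. Filled points have an adjusted p under 0.05 in edgeR: 4 with both stimuli, 2 with IL-33 and none with the antibody, all below 0.

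By role, the sensors of foreign nucleic acid held both genes called with IL-33, and 9 of 10 were tested. Ddx58, which encodes RIG-I, stood at 60.0, 61.0 and 64.5 CPM in isotype, 42.6, 44.1 and 66.1 CPM with IL-33 and 41.2, 50.1 and 32.1 CPM with both stimuli. The combined group lay below isotype without overlap (log2 fold change -0.59, SE 0.19, edgeR adjusted p = 0.0684), while IL-33 library 3 was above all isotype libraries. Ifih1, which encodes the RNA sensor MDA5, stood at 15.7, 13.2 and 18.2 CPM in isotype, 10.4, 8.73 and 19.3 CPM with IL-33, library 3 again the highest, and 10.4, 8.24 and 4.90 CPM with both (log2 fold change -1.0, SE 0.31, edgeR adjusted p = 0.0575). Eif2ak2, the RNA-activated kinase PKR, ranged from 13.4 to 17.7 CPM in isotype and from 7.63 to 24.2 CPM over the other groups, with overlap in each comparison. Zbp1, a sensor of Z-form nucleic acid, had log2 fold changes of 0.20 with IL-33 and 0.42 with both stimuli, and the groups overlapped. Oas1a, which makes the messenger that activates RNase L, had 0.95, 4.96 and 4.56 CPM with both stimuli against 0.849, 1.85 and 1.96 CPM in isotype, so combined libraries 2 and 3, those that stood apart, were the high ones. Oas3 and Oasl1 stayed between 0 and 4.19 CPM and the groups overlapped, apart from Oas3 with the antibody.

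All 4 transcription factors were tested and edgeR called none. At an unadjusted p under 0.05, 1 was lower with IL-33 (Irf9), where 13.6% of all genes passed in either direction. With both stimuli 1 was lower (Stat2), where 26.5% of all genes passed. Stat2 stood at 69.7, 58.7 and 55.5 CPM in isotype, 56.2, 47.6 and 70.4 CPM with IL-33 and 47.3, 41.2 and 41.0 CPM with both stimuli. The combined group was below all other groups without overlap (log2 fold change against isotype -0.51, SE 0.16, edgeR adjusted p = 0.0614). Irf9 stood at 52.1, 49.1 and 46.8 CPM with both stimuli (log2 fold change -0.19). Irf7, the factor that amplifies type I interferon production, stood at 12.5, 18.1 and 12.7 CPM in isotype and 11.6, 12.4 and 7.82 CPM with IL-33, where the groups just failed to overlap (log2 fold change -0.44, SE 0.26), and at 14.2, 9.34 and 16.8 CPM with both stimuli, where they overlapped. Irf1, also induced by interferon gamma, had log2 fold changes of -0.19, -0.12 and -0.22 with IL-33, antibody and both, with overlap in each.

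In the ISG15 system Trim25 was the only called member of 3. Isg15, a ubiquitin-like protein, was low, at 2.15, 5.24 and 2.43 CPM in isotype, 3.86, 2.25 and 3.47 CPM with the antibody, 4.25, 4.64 and 3.28 CPM with IL-33 and 4.02, 6.81 and 5.24 CPM with both. The groups overlapped except for both stimuli against the antibody. Its log2 fold changes against isotype were 0.31 (SE 0.38) with IL-33 and 0.71 (SE 0.38) with both stimuli. Usp18, which removes Isg15 from proteins and restrains the type I receptor, ranged from 5.61 to 12.4 CPM over all libraries and overlapped in every comparison.

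Of the 10 antiviral effectors 6 were tested and edgeR called none. At an unadjusted p under 0.05 there was none with IL-33, against 13.6% of all genes. With both stimuli 2 were higher and 1 lower, against 26.5% of all genes in either direction. Bst2 stood at 12.8, 18.8 and 14.1 CPM in isotype, 11.8, 11.0 and 19.0 CPM with the antibody, 14.3, 18.4 and 12.4 CPM with IL-33 and 19.5, 24.6 and 30.3 CPM with both. Its 3 libraries with both stimuli were above all 9 others (log2 fold change against isotype 0.71, SE 0.26, edgeR adjusted p = 0.0972). Ifitm3 stood at 12.7, 16.3 and 11.2 CPM in isotype and 21.7, 28.3 and 40.1 CPM with both, again without overlap (log2 fold change 1.16, SE 0.39, edgeR adjusted p = 0.0773), and at 26.7, 14.5 and 28.4 CPM with the antibody. DESeq2 called both higher (adjusted p = 0.0391 for Bst2 and 0.0224 for Ifitm3), and edgeR called Ifitm3 without a low-count filter (0.000137) and with only the groups compared (0.0336). For both genes the highest values were in combined libraries 2 and 3. Without them, with 1 library left in the group, the log2 fold changes were 0.41 and 0.75 (edgeR adjusted p = 0.590 and 0.514).

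Cmpk2, a mitochondrial nucleotide kinase, stood at 2.42, 3.40 and 4.08 CPM in isotype, 0.784, 1.65 and 3.00 CPM with IL-33 and 0.292, 0.421 and 2.25 CPM with both (log2 fold change -1.71, SE 0.69, edgeR adjusted p = 0.133). Rsad2 stayed between 0 and 1.93 CPM, and Isg20, an exonuclease, had a log2 fold change of 0.51 (SE 0.24) with both stimuli. Ifit1 stood at 0.261, 0.443 and 0.235 CPM in isotype, near the lowest readable level, and at 0.715, 0.642 and 0.601 CPM with the antibody (log2 fold change 1.04, SE 1.07). With IL-33 it stood at 0.196, 2.68 and 0.140 CPM, so 1 library carried the group mean.

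The guanylate-binding protein genes Gbp5, Gbp7, Gbp3 and Gbp2 lie in that order on mm10 chromosome 3, from 142493978 to 142638008, and differed among themselves. While Gbp7 was called lower with both stimuli, Gbp2 stood at 6.57, 6.73 and 6.88 CPM there against 6.33, 8.71 and 7.92 CPM in isotype (log2 fold change -0.18, SE 0.31). Gbp3 and Gbp5 had log2 fold changes of -0.22 (SE 0.51) and 0.09 (SE 0.46). The difference between Gbp7 and its neighbours was not tested.

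With IL-33 alone, library 2 held the highest value of all 12 libraries for Gbp2, Gbp3, Gbp5 and Ifit1. Gbp2 stood at 6.27, 14.2 and 6.70 CPM, and Gbp3 at 3.00, 12.4 and 4.05 CPM in IL-33 libraries 1 to 3. Gbp5 had 2.55, 7.95 and 3.77 CPM there. Gbp7 did not share this, with 29.1, 28.5 and 50.5 CPM. The log2 fold changes against isotype were 0.24, 0.80, 0.95 and 1.63 for Gbp2, Gbp3, Gbp5 and Ifit1 with all libraries, and -0.21, -0.04, 0.39 and -0.84 without IL-33 library 2, none called.

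The same library was highest for markers of several other cells of the spleen. The 13 T cell and innate lymphoid cell markers, all tested, summed to 171 CPM there and to 39.9 to 79.4 CPM in the other 11 libraries. Plasmacytoid dendritic cell markers (6 of 8 tested) summed to 119 CPM, against 40.7 to 81.0 CPM, with Siglech at 5.27 CPM and Klk1 at 0. Conventional dendritic cell markers (5 of 8 tested) summed to 455 CPM, against 194 to 357 CPM, and B and plasma cell markers (9 of 9 tested) to 1268 CPM, against 612 to 1146 CPM. Ifng itself had 13 counts in that library, 5 in isotype library 2, 2 and 13 in combined libraries 1 and 3 and 0 in the other 8. The part of these cells in the Gbp and Ifit1 values was not tested.

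**Figure D4:**
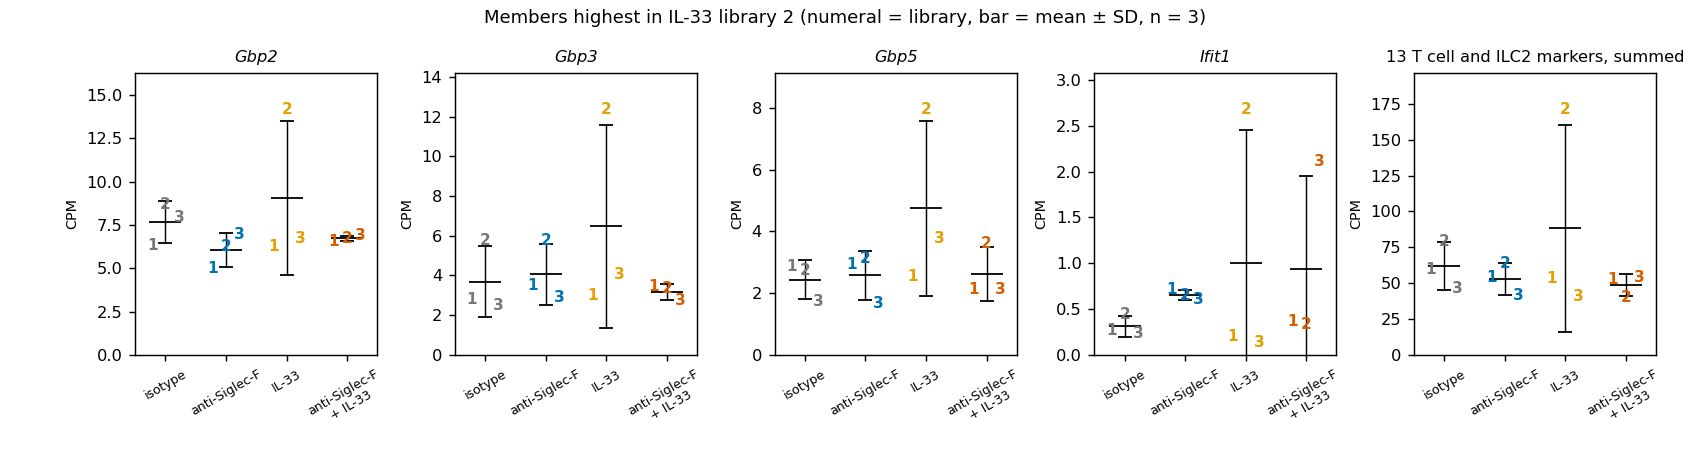
CPM of Gbp2, Gbp3, Gbp5 and Ifit1 and the summed CPM of 13 T cell and innate lymphoid cell markers. Each numeral is a library, the long bar is the mean and the whiskers are the SD (n = 3), not drawn below 0. IL-33 library 2 is the highest of the 12 in each panel, at 14.2 CPM for Gbp2 and 171 CPM for the markers.

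The remaining members are of mixed function. Parp14, an enzyme that attaches ADP-ribose to proteins, stood at 74.8, 61.5 and 81.5 CPM in isotype, 59.3, 61.5 and 90.9 CPM with IL-33 and 54.5, 45.0 and 27.7 CPM with both. The combined group was below each other group without overlap (log2 fold change against isotype -0.78, SE 0.24, edgeR adjusted p = 0.0546, and -0.36 without libraries 2 and 3). Ifi35 stood at 54.2, 77.3 and 54.9 CPM in isotype and 48.1, 74.2 and 93.5 CPM with both, and the groups overlapped. Xaf1, a pro-apoptotic partner of XIAP, stayed between 0.157 and 1.92 CPM.

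The direction of members with both stimuli went with their gene length, the value also used for RPKM. Over the 29 tested genes, Spearman's rho between gene length and log2 fold change was -0.71 for both stimuli against isotype, -0.33 for IL-33 and -0.11 for the antibody, given as a description over genes that share the same libraries. Over all 14547 genes the same values were -0.10, 0.13 and 0.10. Short members such as Ifitm3 (678 bases), Isg15 (756) and Bst2 (903) had positive values with both stimuli, and long ones such as Parp14 (9306), Ifih1 (8165), Ddx58 (7050) and Oasl2 (6374) negative ones. Per library, the median deviation from the gene's mean log2 level was higher by 0.497 and 0.446 for genes under 2116 bases than for genes over 6031.5 bases in combined libraries 2 and 3, and this difference ran from -0.362 to 0.250 in the other 10. The length trend of each library over all genes was then removed, an alternative chosen after seeing the data. edgeR called the same 4 members lower with both stimuli, and Parp14 as well (log2 fold change -0.61, adjusted p = 0.0491), with 12.9% of all genes called. With IL-33 it called the same 2, with 3.20% of all genes called. The trend removed was that of all genes, not the steeper one of the members, so the part of length in the member values was not tested.

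**Figure D5:**
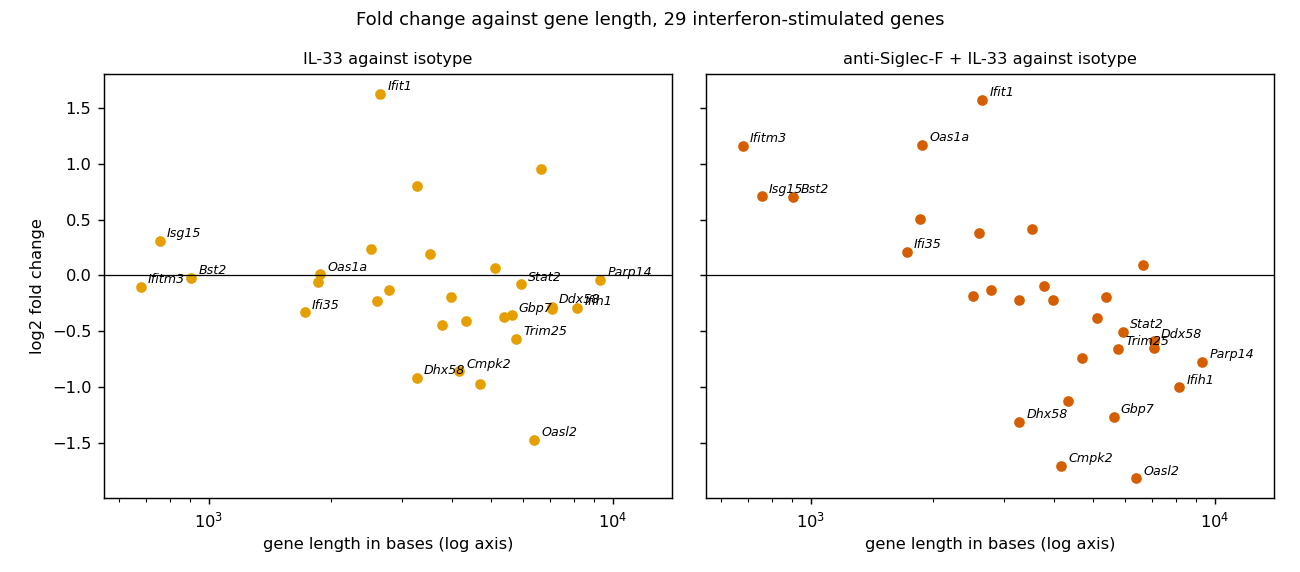
Log2 fold change against gene length in bases (log axis) for the 29 tested genes, with IL-33 (left) and both stimuli (right) against isotype. With both stimuli Ifitm3 (678 bases) lies at 1.16 and Parp14 (9306 bases) at -0.78, and Spearman's rho is -0.71.

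The other parts of the interferon pathway were described from lists of known members. Of 21 interferon genes none had enough counts to be tested and 11 had no count in any library, Ifnb1 among them. Their summed level was at most 1.84 CPM, in combined library 3, and Ifng gave 33 of the counts. At 3 counts as the limit, a level of Ifnb1 below 0.175 to 0.257 CPM, by library, was not detectable.

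All 11 receptor and JAK-STAT genes were tested. edgeR called none with IL-33, with 3 higher at an unadjusted p under 0.05, where 13.6% of all genes were in either direction. DESeq2 called 3 higher with IL-33, and 5.54% of all genes in either direction. With both stimuli edgeR called 3 of 11 higher, and 5.47% of all genes. These were Ifngr2 (log2 fold change 0.89, edgeR adjusted p = 0.00612), Il10rb, a chain of the type III interferon receptor (1.18, adjusted p = 0.00489), and Ifnar1 (0.56, adjusted p = 0.0406). Ifnar1 stood at 101, 102 and 89.6 CPM in isotype, 166, 140 and 136 CPM with IL-33 and 178, 127 and 127 CPM with both. Both stimulated groups were above isotype without overlap, and with IL-33 the gene missed the threshold (log2 fold change 0.60, edgeR adjusted p = 0.0759). Its call with both stimuli was lost without isotype library 1, 2 or 3 or combined library 1 (adjusted p up to 0.159), and that of Ifngr2 without combined libraries 2 and 3. Jak1, Tyk2, Ifnar2 and Ifngr1 had log2 fold changes between 0.01 and 0.45 with both stimuli, none called. Without combined libraries 2 and 3, 4 of the 11 genes were called higher with IL-33, and 4.30% of all genes in either direction.

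Of 7 brakes on interferon signalling, all tested, edgeR called none with IL-33. At an unadjusted p under 0.05 there were 4 higher, against 13.6% of all genes in either direction. DESeq2 called 3 higher with IL-33, and 5.54% of all genes in either direction. With both stimuli edgeR called 4 higher, against 5.47% of all genes. These were Socs3 (log2 fold change 0.75), and the phosphatase genes Ptpn1 (0.65), Ptpn2 (0.74) and Ptpn6 (0.77), with edgeR adjusted p from 0.00634 to 0.0406. Without combined libraries 2 and 3, which leaves 1 library in that group, Socs3 and Ptpn6 lost their calls. Ptpn2 kept its call in all 6 fits with 1 library left out. Ptpn6 lost it without isotype library 1, Socs3 without isotype library 1 or 3 or combined library 3, and Ptpn1 in each fit but that without combined library 2 (adjusted p up to 0.132). Socs1, which blocks the receptor kinases, stood at 301, 454 and 304 CPM in isotype and 374, 739 and 705 CPM with both (log2 fold change 0.78, edgeR adjusted p = 0.0583), and the groups overlapped.

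In the nucleic acid and Toll-like receptor arm, which induces interferons, 17 of 18 genes were tested, and 3 rose with IL-33 (1.46% of all genes were called higher). Tlr9, the receptor for unmethylated DNA, stood at 11.6, 10.5 and 9.41 CPM in isotype, 90.0, 67.4 and 51.4 CPM with IL-33 and 116, 33.3 and 42.5 CPM with both. The groups were far apart, with log2 fold changes of 2.73 and 2.61 (edgeR adjusted p = 0.00192 and 0.00128), and the calls held in all fits with 1 library left out. Ikbke, a kinase upstream of Irf3 and Irf7, rose by 2.35 with IL-33 and 2.77 with both stimuli, and Traf3 by 0.96 with IL-33. The IL-33 calls of Ikbke and Traf3 each held only when IL-33 library 3 was the one omitted (adjusted p up to 0.187 and 0.112), and Ikbke also lost it with the replicate block. With both stimuli Irf5 rose (0.63) and Tlr8 fell (-2.92, edgeR adjusted p = 0.0497), the latter from at most 1.17 CPM. The Tlr8 call held only when combined library 1 was the one omitted (edgeR adjusted p up to 0.207 otherwise), and was lost under DESeq2, limma voom, other scaling, both other filters, only the groups compared, and without combined libraries 2 and 3. The Irf5 call was lost when isotype library 1, isotype library 2 or combined library 3 was omitted (edgeR adjusted p up to 0.0978), and also without a filter, under limma voom, with only the groups compared and without combined libraries 2 and 3. Irf3 and Myd88 had log2 fold changes between -0.05 and 0.23 in these comparisons, none called. Irf8 had 71.9 CPM in IL-33 library 2 and 23.7 to 47.4 CPM elsewhere.

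A further 62 interferon-stimulated genes, 54 of them tested, were described in the same way. edgeR called none with IL-33, where the median log2 fold change was -0.15. At an unadjusted p under 0.05 there were 2 higher and 4 lower, against 13.6% of all genes in either direction. DESeq2 called 1 higher, against 5.54% of all genes in either direction. With both stimuli the median was -0.39, and 3 rose, Ifitm2 (1.60), Ube2l6, the enzyme that charges Isg15 onto targets (1.27), and Tor3a (1.03), while 2 fell, the helicase gene Ddx60 (-1.88, edgeR adjusted p = 0.00605) and Sp100 (-0.67). These 5 of 54 are near the 9.88% called over all genes. Ddx60 stood at 26.6, 19.3 and 25.6 CPM in isotype and 9.13, 6.48 and 3.81 CPM with both, without overlap. Its call was lost without combined libraries 2 and 3, which leaves 1 library in that group. Of this list 1 gene was called with both stimuli without combined libraries 2 and 3, and 12 without combined library 1, where 19.1% of all genes were called. Ifitm2 had 133, 224 and 286 CPM with both against 54.9 to 84.0 CPM in isotype, the higher values again in libraries 2 and 3. Its call was kept only when combined library 1 was the one omitted. Omitting isotype library 1, or isotype library 3, ended the calls of Ube2l6 and Sp100 (edgeR adjusted p reaching 0.0767 and 0.0632), while Tor3a and Ddx60 kept theirs in all 6 fits.

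Of 30 targets typical of interferon gamma and antigen presentation 24 were tested. With IL-33 2 rose and 1 fell (2.21% of all genes were called), and with both stimuli 3 rose and 2 fell (9.88% of all genes). Cxcl10, a chemokine gene with both interferon and NF-kB control, stood at 0.587, 0.812 and 0.235 CPM in isotype, 9.60, 31.9 and 4.19 CPM with IL-33 and 7.74, 3.79 and 8.79 CPM with both. All stimulated libraries were above isotype, and IL-33 library 2 was the highest (log2 fold changes 4.77 and 3.61, edgeR adjusted p = 0.00293 and 0.00718). Cd274, which encodes PD-L1, rose by 1.30 with IL-33 and 1.42 with both stimuli, and Wars, a tRNA synthetase gene, fell by 0.58 and 0.61. The IL-33 calls of Cd274 and Wars were lost if any isotype library or the first IL-33 library was omitted, and that of Wars also without IL-33 library 2 (adjusted p up to 0.0869 and 0.222). With both stimuli B2m rose (0.78) and the peptide transporter gene Tap2 fell (-0.53), neither called without combined libraries 2 and 3. The B2m call held only when combined library 1 was the one omitted, and that of Tap2 in 3 of 6 such fits (edgeR adjusted p up to 0.132 and 0.134). With the antibody alone neither edgeR nor DESeq2 called a gene of these 5 lists. At an unadjusted p under 0.05 there were 2 in the Toll-like receptor arm and 1 in this list, against 2.54% of all genes.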

How the data were processed

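RNA sequencing counts of 12 libraries in 4 groups of 3 were analysed as deposited by the authors. Per the submitters' processing notes, reads were handled with fastp, FastQC 0.11.8, STAR 2.6.1d, featureCounts 1.5.0-p3 and DESeq2 on mm10. Neither annotation release nor strand setting was given in the sources used here, so overlapping and antisense genes cannot be told apart. The deposited normalized values equal the counts divided by 1 factor per library and were not used.

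Counts were fitted in R 4.3.3 with edgeR 4.0.16 (TMM scaling, filterByExpr, quasi-likelihood F test) over all 4 groups, with Benjamini-Hochberg adjustment over 14547 genes and a threshold of 0.05. Only the 6 comparisons described were made. CPM values use TMM library sizes, RPKM values also the table's gene lengths, and SE values come from the log2 fold change divided by the root of F. A group without overlap is one whose 3 libraries all lie above or below those of the other. Alternatives were DESeq2 1.42.0, limma 3.58.1 voom, other scaling and filters, only the groups compared, a replicate block, libraries left out, and length-trend offsets. The limma voom fits used sample quality weights, which give less weight to libraries that vary more. The script was tested on simulated data.

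Replicate numbers come from the labels. Same-numbered libraries deviated together for IL-33 and isotype (correlations 0.31, 0.44 and 0.26, all above 0.1), so the numbers were taken to pair these. This was not so in the other comparisons (lowest correlations -0.14, -0.02, -0.41 and -0.30). The main fit held no replicate block, so the main p-values for IL-33 against isotype do not use this pairing. Fits with a block are given in the closing section.

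The members and lists were chosen with earlier results of these data known. Any member could be named, called members with every library's value. Of the other lists, up to 4 called genes with the largest changes and a short set of central pathway genes were named; Sp100, Tap2, Ncr1, Siglech, Klk1, Siglecf, Epx and Prg2 were named outside this rule, after their values were seen.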

Additional observations from a re-analysis of the deposited data

How the results depend on the processing

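No value of a member reversed direction past a threshold. Of the member values recomputed under the other settings, 2473 kept their side of the threshold, 51 came to pass it and 37 no longer passed it; under those added after seeing the data, 198 kept it and 3 came to pass it. The count of called members moved by more than 1.5 times in these cases. Without a low-count filter it was 8 for both stimuli against isotype, 3 against IL-33 and 6 against the antibody. Of all genes, 5.52%, 2.20% and 4.47% were called there. With DESeq2 the counts in that order were 10, 1 and 7, with 16.5%, 3.23% and 11.2% of all genes called. With limma voom the count was 6 for IL-33 against isotype, with 14.4% of all genes called. With only the groups compared it was 0 for both stimuli against the antibody. Without combined libraries 2 and 3, which leaves 1 library in that group, it was 2 against isotype and 0 against the antibody. The cause of these shifts was not tested. With 1 library left out the count ran from 0 to 2 for IL-33 against isotype, 0 to 0 for the antibody, 2 to 9 for both stimuli against isotype, 0 to 5 against IL-33, 0 to 9 against the antibody and 0 to 0 for the interaction. The counts of 9, 5 and 9 came without combined library 1, where 19.1%, 13.85% and 18.6% of all genes were called. With the replicate block the counts were 2 for IL-33 against isotype, 0 for the antibody, 4 for both stimuli against isotype, 0 against IL-33, 4 against the antibody (adding Oas1a, higher, log2 fold change 1.75, edgeR adjusted p = 0.0466) and 0 for the interaction. Where members were called, the block called 2.50%, 10.0% and 4.41% of all genes, in the same order. A block with only the IL-33 and isotype libraries, chosen after seeing the data, called 3 of 27 members, adding Trim25 (-0.54, edgeR adjusted p = 0.0205). That fit called 9.08% of all genes. Length-trend offsets, also chosen after seeing the data, gave 2, 0, 5, 0, 4 and 0 members in the order of the block counts. Where members were called, these fits called 3.20%, 12.9% and 5.51% of all genes. Without a low-count filter all 35 members were tested, and none of the 6 that the filter removes was called; their few counts limit what this depth can show.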
